A study of Rattus norvegicus with 14 samples.

Results

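The cell cycle genes described here are 43 rat genes of DNA replication and mitosis, chosen by symbol. Of these, 40 had a transcript cluster (the array's unit for one gene) that the platform annotation gave to a single gene, out of 18166 such genes in all. The 40 comprised 15 of 16 replication genes and 25 of 27 mitosis genes, and where a gene had several clusters the cluster with the highest mean was used. The array signals of Rrm1, the large subunit of ribonucleotide reductase, Birc5, a subunit of the chromosomal passenger complex, and Cenpe, a kinetochore motor, were not analysed here. These genes enter the promoter counts only. RNA came from whole epididymides of Sprague-Dawley rats, an outbred strain, at 4 postnatal ages, and was hybridised to Affymetrix RatGene 2.0 ST arrays. The youngest age (day 7) and the oldest (day 60) had 3 pools each, days 18 and 28 had 4 each, and each pool had its own array. The 7-day and 18-day pups were kept with lactating mothers, whereas the older rats fed freely, and no treatment or genetic change was given to any group. The labels do not give the number of animals in a pool, nor whether pools of an age came from separate litters, so p-values here measure the spread between pools only.

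As background, a dividing cell copies its DNA once and then shares the copies between its daughters, and separate sets of genes serve these phases. Genes of replication origins, helicases and nucleotide supply are classic targets of E2F factors around the entry into S phase. Genes of the mitotic spindle, kinetochore and cytokinesis are expressed later, through B-Myb, FoxM1 and the MuvB complex. Of these, MuvB binds CHR elements, often beside CCAAT boxes. The epididymis is a single coiled duct in which sperm mature, and its epithelium is known to multiply after birth and to differentiate as puberty approaches.

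All 40 measured genes had a lower signal at day 60 than at day 7, and in each of them the 3 day 60 pools lay below the 3 day 7 pools without overlap. Across all 18166 genes, 27.6% were called lower over this span by limma at an adjusted p under 0.05, and 32.1% did not overlap in this direction. The median difference of the 40 genes was -2.02 on the log2 scale, against -0.03 over all genes tested. A fall of at least 2-fold was found for 36 of the 40 genes and for 6.28% of all genes. The falls ran from 1.37-fold for Kif11 to 8.55-fold for Depdc1. Values are log2 array signals, in which a difference of -1 is a fall of 2-fold. In a whole organ, fewer dividing cells and less of each transcript per dividing cell cannot be told apart.

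**Figure D1:**
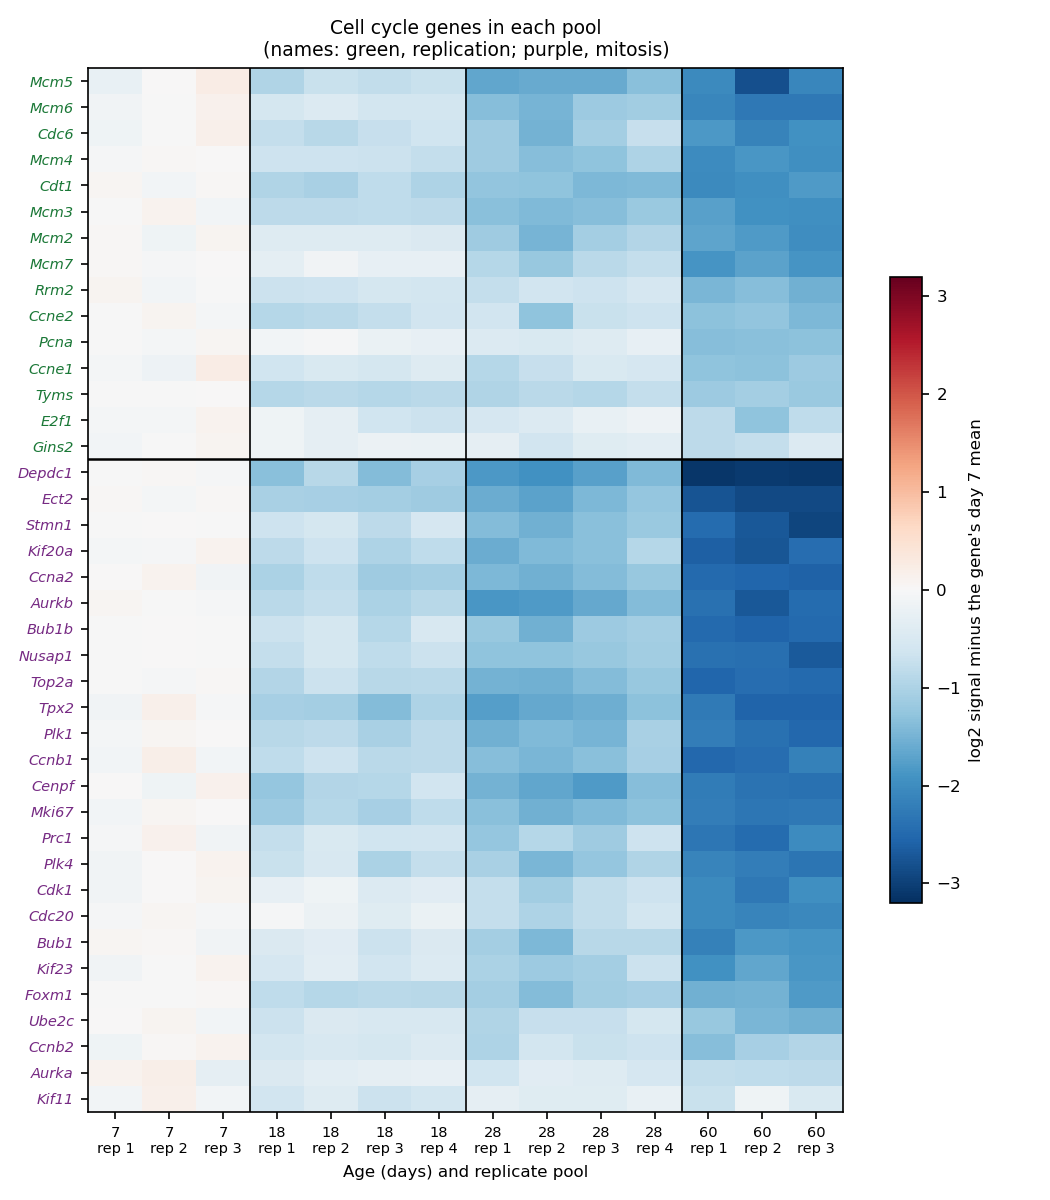
Log2 signal of each of the 40 genes (rows) in each of the 14 pools (columns, by age in days and replicate number), minus the gene's day 7 mean. Replication genes are named in green and mitosis genes in purple, and the signal of every gene is lower in all day 60 pools than in all day 7 pools.

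Among the replication genes, the Mcm2 to Mcm7 group encodes the ring-shaped helicase that opens DNA at origins. All 6 of its genes fell from day 7 to day 60, by 3.54-fold for Mcm7 to 4.98-fold for Mcm5. The Mcm5 signal was 9.03, 9.28 and 9.52 in the day 7 pools, 8.32, 8.57, 8.49 and 8.56 at day 18, 7.61, 7.67, 7.65 and 7.93 at day 28, and 7.24, 6.46 and 7.18 at day 60. The 4 ages did not overlap, although day 60 replicate 2 was well below the other pools of that age. The Mcm6 signal was 8.53, 8.63 and 8.77 at day 7, 8.09, 8.21, 8.06 and 8.04 at day 18, 7.27, 7.14, 7.47 and 7.52 at day 28, and 6.54, 6.34 and 6.36 at day 60. Mcm6 also separated all 4 ages, with a whole-span difference of -2.22 ± 0.11 (SE; limma, adjusted p = 2.54e-10). Mcm7 was called at the second and the last step. Its signal was 9.19, 9.12 and 9.17 at day 7, 8.85, 9.05, 8.90 and 8.89 at day 18, 8.24, 7.94, 8.29 and 8.40 at day 28, and 7.27, 7.45 and 7.28 at day 60. The day 18 pools lay below the day 7 pools, but the difference of -0.24 ± 0.099 (SE) missed the threshold (limma, adjusted p = 0.0753), which it passed under 4 other settings (adjusted p 0.0316 to 0.0361). At the second and the last step Mcm7 fell by 0.70 and by 0.89 on the log2 scale.

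Loading of the helicase needs Cdc6 and Cdt1, and its activation needs the GINS complex, of which Gins2 is a subunit. The Cdt1 signal was 8.04, 7.90 and 8.03 at day 7, 7.04, 6.95, 7.19 and 7.01 at day 18, 6.72, 6.72, 6.56 and 6.59 at day 28, and 5.95, 6.04 and 6.19 at day 60. No 2 ages overlapped, and the first step was the largest, at -0.95 ± 0.085 (SE; limma, adjusted p = 5.08e-07). Cdc6 was 6.84 ± 0.15 at day 7 and 4.87 ± 0.15 at day 60 (mean ± SD, n = 3 pools each). The latter mean is under 4.92, the level that 95% of 1343 olfactory and vomeronasal receptor genes did not exceed and that is taken here as background, so its fold of 3.92 may understate the fall. Gins2 differed least among the replication genes, from 6.53 ± 0.088 at day 7 to 5.85 ± 0.22 at day 60 (mean ± SD, n = 3 each). It passed the test over the whole span only (-0.68 ± 0.11, SE; limma, adjusted p = 0.000115), and none of its single steps was called, with differences of -0.20, -0.20 and -0.28.

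The promoters below belong to the 3 replication genes with the largest falls that have an entry in the RefSeq promoter table. They are shown because the E2F sites that mark this group can be read in them. Each runs 5′ to 3′ on the gene's strand, from 250 bases before the annotated start to 30 bases after it, in build GRCr8. Capitals mark E2F sites (TTTGGCGC, TTTCCCGC, TTTCGCGC or TTTGCCGC, on either strand), CCAAT boxes (CCAAT, on either strand) and CHR elements (TTTGAA or TTCGAA, on either strand).
Mcm5 (chr19:13488563-13488842, plus strand): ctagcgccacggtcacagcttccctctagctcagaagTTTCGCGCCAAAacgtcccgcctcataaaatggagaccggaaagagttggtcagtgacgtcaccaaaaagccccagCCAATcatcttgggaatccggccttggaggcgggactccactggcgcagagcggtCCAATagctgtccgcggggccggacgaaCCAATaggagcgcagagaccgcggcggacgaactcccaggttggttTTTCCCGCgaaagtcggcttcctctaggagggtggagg
Mcm6 (chr13:42404323-42404602, minus strand): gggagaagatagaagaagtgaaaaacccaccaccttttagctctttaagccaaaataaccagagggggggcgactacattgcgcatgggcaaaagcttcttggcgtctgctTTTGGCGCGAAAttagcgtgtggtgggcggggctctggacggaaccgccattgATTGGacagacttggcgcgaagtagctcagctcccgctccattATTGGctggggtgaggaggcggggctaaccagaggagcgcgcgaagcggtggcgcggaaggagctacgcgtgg
Cdt1 (chr19:67528999-67529278, plus strand): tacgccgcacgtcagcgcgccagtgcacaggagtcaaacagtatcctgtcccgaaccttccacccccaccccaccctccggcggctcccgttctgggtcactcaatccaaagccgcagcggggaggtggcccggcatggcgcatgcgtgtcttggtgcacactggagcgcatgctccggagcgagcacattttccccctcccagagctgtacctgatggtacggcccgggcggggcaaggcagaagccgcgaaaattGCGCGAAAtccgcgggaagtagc
Mcm5 holds 3 E2F matches, of which TTTCGCGC and GCGCCAAA overlap on opposite strands, and 3 CCAAT boxes. Mcm6 holds an overlapping pair of E2F matches and 2 CCAAT boxes. Cdt1 holds an E2F match just after its start and a further one past the printed stretch, and no CCAAT box or CHR element.

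Pcna, the sliding clamp of the DNA polymerases, fell mostly at the last step. Its signal was 9.97, 9.92 and 10.05 at day 7, 9.89, 9.93, 9.76 and 9.72 at day 18, 9.54, 9.49, 9.58 and 9.73 at day 28, and 8.62, 8.63 and 8.68 at day 60. The first 3 ages overlapped with their neighbours, while the day 60 pools lay well below every other pool. The last step of -0.94 ± 0.080 (SE; limma, adjusted p = 1.51e-06) made up 70.5% of the whole difference. Tyms, which makes the thymidine nucleotide, showed the opposite course. Its signal was 9.60, 9.62 and 9.64 at day 7, 8.70, 8.75, 8.70 and 8.76 at day 18, 8.65, 8.76, 8.70 and 8.86 at day 28, and 8.46, 8.52 and 8.42 at day 60. The first step of -0.89 ± 0.068 (SE; limma, adjusted p = 9.71e-08) was 77.5% of its whole difference, days 18 and 28 overlapped, and the last step was -0.27 ± 0.068 (SE; adjusted p = 0.0091). The call at that last step ended after median centring (-0.21, adjusted p = 0.103) and in a fit of the compared ages alone (adjusted p = 0.0582). Rrm2, the small subunit of ribonucleotide reductase, fell by 0.63 at the first step and by 0.81 at the last, with a difference of -0.02 ± 0.073 (SE) in between (limma, adjusted p = 0.885). The second Rrm2 cluster differed by -0.19 at the first step, which was not called (limma over every cluster, adjusted p = 0.231), and by -1.04 at the last. A further cluster, which the annotation gave to both Rrm2 and Rrm2l1, differed by -0.07 (not called) and by -0.66.

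The regulators of S phase entry fell by 1.96-fold (E2f1) to 2.53-fold (Ccne2). Ccne1 and Ccne2 encode the E-type cyclins that activate Cdk2, and Ccne1 was lower at day 60 by 2.40-fold. In neither was the step from day 18 to day 28 called, with differences of -0.15 ± 0.10 and -0.03 ± 0.13 (SE). E2f1 encodes an activating E2F factor. Its signal was 6.73, 6.73 and 6.90 at day 7, 6.65, 6.51, 6.14 and 6.09 at day 18, 6.25, 6.35, 6.56 and 6.62 at day 28, and 5.96, 5.50 and 5.97 at day 60. Days 18 and 28 overlapped, with a difference of 0.10 ± 0.14 (SE; limma, adjusted p = 0.669). The whole-span difference was -0.97 ± 0.16 (SE; adjusted p = 0.000125).

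Among the mitosis genes, 25 of 25 fell over the whole span, and the largest falls were those of Depdc1, Ect2, Stmn1 and Kif20a. The Depdc1 signal was 8.22, 8.26 and 8.20 at day 7, 6.88, 7.33, 6.85 and 7.17 at day 18, 6.40, 6.30, 6.48 and 6.81 at day 28, and 5.11, 5.15 and 5.13 at day 60. Depdc1 is a gene of dividing cells needed for mitotic progression, and its ages did not overlap. The difference over the span was -3.10 ± 0.14 (SE; limma, adjusted p = 9.19e-11). Ect2 encodes the exchange factor that turns on RhoA for cytokinesis. Its signal was 8.47, 8.38 and 8.47 at day 7, 7.39, 7.38, 7.35 and 7.30 at day 18, 6.86, 6.73, 7.00 and 7.20 at day 28, and 5.68, 5.56 and 5.56 at day 60. No ages overlapped, the day 28 pools spread most, and the fall was 7.15-fold (limma, adjusted p = 9.68e-12). Stmn1 encodes stathmin, which destabilises microtubules. Its signal was 11.17, 11.21 and 11.19 at day 7, 10.54, 10.62, 10.35 and 10.65 at day 18, 9.79, 9.67, 9.85 and 9.999 at day 28, and 8.73, 8.48 and 8.24 at day 60. It fell at each step, by 0.65, 0.71 and 1.34 on the log2 scale, and by 6.53-fold in all.

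The promoters of Depdc1, Ect2 and Stmn1 are printed on the same scheme and with the same capitals, since the first pair carry the CHR element close to the start and Stmn1 does not.
Depdc1 (chr2:251343031-251343310, plus strand): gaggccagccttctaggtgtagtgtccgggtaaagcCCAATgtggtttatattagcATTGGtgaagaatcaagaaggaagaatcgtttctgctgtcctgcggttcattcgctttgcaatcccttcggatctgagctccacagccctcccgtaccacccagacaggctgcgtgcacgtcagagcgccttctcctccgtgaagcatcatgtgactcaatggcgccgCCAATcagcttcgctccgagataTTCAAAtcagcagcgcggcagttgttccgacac
Ect2 (chr2:111966597-111966876, minus strand): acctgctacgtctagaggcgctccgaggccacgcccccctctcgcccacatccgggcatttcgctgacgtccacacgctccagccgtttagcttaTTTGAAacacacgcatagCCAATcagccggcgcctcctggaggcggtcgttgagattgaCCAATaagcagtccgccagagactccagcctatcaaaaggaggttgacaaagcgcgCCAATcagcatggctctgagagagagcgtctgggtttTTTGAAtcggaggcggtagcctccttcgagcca
Stmn1 (chr5:151964929-151965208, plus strand): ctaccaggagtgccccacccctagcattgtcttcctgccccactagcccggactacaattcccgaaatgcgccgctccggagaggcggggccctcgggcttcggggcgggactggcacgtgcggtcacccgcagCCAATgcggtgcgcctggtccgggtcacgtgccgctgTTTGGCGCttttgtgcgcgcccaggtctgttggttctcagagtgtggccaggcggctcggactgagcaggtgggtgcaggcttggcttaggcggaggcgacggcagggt
In Depdc1 a CHR match (TTCAAA, the reverse complement of TTTGAA) begins 3 bases before the start and a CCAAT box begins 26 bases before it. Ect2 holds 2 CHR matches, the nearer of which also begins 3 bases before the start, and 3 CCAAT boxes. Stmn1 holds a CCAAT box and an E2F match, with no CHR element in the printed stretch.

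Cdk1 and its cyclins drive entry into mitosis. Ccna2, cyclin A2, fell by 5.83-fold over the span and Ccnb1, cyclin B1, by 5.17-fold. Cdk1 itself was called at the second and the last step. Its signal was 8.30, 8.43 and 8.50 at day 7, 8.15, 8.28, 7.98 and 8.05 at day 18, 7.65, 7.30, 7.63 and 7.75 at day 28, and 6.38, 6.11 and 6.44 at day 60. The day 18 pools lay just below those of day 7, with a difference of -0.30 ± 0.12 (SE; limma, adjusted p = 0.0595), and it passed under 4 other settings (adjusted p 0.0248 to 0.0383). The next steps of -0.53 and -1.27 were called, and the last was 60.5% of the whole. Ccnb2, cyclin B2, is read by a pair of clusters that gave different sizes. The brighter cluster went from 9.57 ± 0.13 at day 7 to 8.45 ± 0.21 at day 60, and the other from 8.73 ± 0.12 to 6.24 ± 0.15 (mean ± SD, n = 3 each). Their differences were -1.12 and -2.49, so the size of the Ccnb2 fall depends on the cluster. So does its call between days 18 and 28, with -0.22 (not called) in the brighter cluster, -0.66 in the other (limma over every cluster, adjusted p = 0.0023) and -0.44 in their mean (adjusted p = 0.000836), and the sequence that each reads was not analysed here. The 2 clusters of Mcm3 gave -1.88 and -2.13, those of Mcm4 -1.94 and -1.67, and those of Rrm2 -1.45 and -1.17. The cluster shared by Rrm2 and Rrm2l1 gave -0.73.

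Foxm1, a transcription factor of mitotic genes, fell by 3.07-fold. Plk1, a kinase of mitotic entry and exit, fell by 5.18-fold, and Plk4, the kinase of centriole duplication, by 4.64-fold. The Aurora kinases gave unlike values. Aurkb, of the chromosomal passenger complex, fell from 8.70 ± 0.050 to 6.18 ± 0.18 (mean ± SD, n = 3 each), or by 5.74-fold. Aurka, the spindle pole kinase, was 7.39, 7.47 and 7.02 at day 7, 6.83, 6.96, 7.00 and 7.03 at day 18, 6.67, 6.93, 6.87 and 6.77 at day 28, and 6.51, 6.48 and 6.46 at day 60. Its first 3 ages overlapped with their neighbours and its whole-span fall was 1.75-fold (limma, adjusted p = 2e-05). The difference between the falls of these 2 genes was not tested.

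Genes of the spindle checkpoint and of its release fell together over the span. Bub1 and Bub1b, checkpoint kinases at the kinetochore, fell by 3.88-fold and 5.72-fold, and the Bub1b mean of 4.73 ± 0.050 (SD, n = 3) at day 60 was under the background level. Ube2c, the ubiquitin-conjugating enzyme of the anaphase-promoting complex, fell by 2.65-fold. Cdc20 encodes the activator of that complex. Its signal was 8.11, 8.22 and 8.13 at day 7, 8.12, 7.96, 7.77 and 7.93 at day 18, 7.40, 7.16, 7.37 and 7.56 at day 28, and 6.11, 6.03 and 6.08 at day 60. Days 7 and 18 overlapped, with a difference of -0.21 ± 0.098 (SE; limma, adjusted p = 0.118), and the last step of -1.30 ± 0.098 (SE; adjusted p = 4.87e-07) held 62.6% of the whole.

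Of the spindle and cytokinesis genes, Tpx2, which targets Aurka to the spindle, fell by 5.53-fold, and Nusap1, a microtubule-bundling protein, by 5.62-fold. Prc1, which crosslinks the central spindle, fell by 4.79-fold. The midzone motors Kif20a and Kif23 fell by 6.06-fold and 3.54-fold. The outer kinetochore gene Cenpf fell by 5.04-fold, and Top2a, the topoisomerase that untangles sister chromatids, by 5.60-fold. Mki67, the widely used marker of dividing cells, was 10.51, 10.67 and 10.63 at day 7, 9.43, 9.69, 9.55 and 9.80 at day 18, 9.25, 9.06, 9.19 and 9.28 at day 28, and 8.40, 8.30 and 8.31 at day 60. No ages of Mki67 overlapped, and its fall was 4.80-fold (limma, adjusted p = 7.75e-11). Kif11, the motor that separates the spindle poles, stood apart. Its signal was 7.77, 8.02 and 7.76 at day 7, 7.24, 7.43, 7.17 and 7.28 at day 18, 7.55, 7.47, 7.46 and 7.60 at day 28, and 7.13, 7.71 and 7.36 at day 60. It fell at the first step (-0.58 ± 0.12, SE; limma, adjusted p = 0.00133), the day 28 pools lay above those of day 18, and the day 60 pools spanned the day 28 range. Its whole-span difference of -0.45 ± 0.13 (SE; adjusted p = 0.008) was the smallest of the 40.

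From day 7 to day 18, 35 of the 40 genes were called lower and none higher, where 20.7% of all genes were called lower and 17.4% higher. At an unadjusted p under 0.05, limma placed 37 lower and 0 higher. The median difference was -0.70, against 0.01 over all genes, and in 37 genes the ages did not overlap, against 24.1% of all genes. Ccna2, Tpx2, Ect2 and Depdc1 fell by at least 2-fold, which 3.07% of all genes did. The genes not called were Mcm7, Gins2, Pcna, Cdk1 and Cdc20. The calls of E2f1 (adjusted p = 0.0334) and Aurka (adjusted p = 0.0184) ended when single pools were left out. For E2f1 each of the 3 day 7 pools and day 18 replicates 3 and 4 did so (adjusted p 0.0601 to 0.116), and for Aurka day 7 replicates 1 and 2 and day 18 replicate 1 (adjusted p 0.0532 to 0.11). Cdk1 passed without day 18, day 28 or day 60 replicate 2 (adjusted p 0.0259 to 0.0486), and Mcm7 without day 28 replicate 2 (adjusted p = 0.0204). With all pools kept, both also passed with array weights, the filter at the median level, the intensity trend or the compared ages alone.

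From day 18 to day 28, 28 of the 40 genes were called lower and none higher, where 14.3% of all genes were called lower and 10.5% higher. At an unadjusted p under 0.05, limma placed 30 lower and 1, Kif11, higher. The median difference was -0.46, against -0.02 over all genes, and 24 genes did not overlap, against 15.6% of all genes. No member fell by 2-fold at this step, which 0.606% of all genes did. The largest falls were those of Aurkb (-0.80 ± 0.10), Mcm5 (-0.77 ± 0.15) and Mcm6 (-0.75 ± 0.093; all SE). The 12 genes not called were Cdc6, Gins2, Rrm2, Tyms, Ccne1, Ccne2 and E2f1 of the replication genes and Ccnb2, Aurka, Ube2c, Kif11 and Prc1 of the mitosis genes. The call of Foxm1 ended without day 18 replicate 1 (adjusted p = 0.0561) or day 28 replicate 2 (adjusted p = 0.0514), that of Plk4 without day 18 replicate 2 (adjusted p = 0.0616) or day 28 replicate 2 (adjusted p = 0.054), and that of Pcna without day 18 replicate 1 or 2 or day 28 replicate 1, 2 or 3 (adjusted p 0.0592 to 0.0904). Cdc6 passed without day 28 replicate 4 (adjusted p = 0.0092), and Prc1 without that pool or day 60 replicate 2 or 3 (adjusted p 0.0128 to 0.0473). After quantile normalisation Kif11 was called higher, by 0.32 (limma, adjusted p = 0.0464).

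Of the day 28 pools, 2 deviated from the age mean in most of the genes. Day 28 replicate 2 lay below its age's mean in 33 of the 40 genes and was the lowest pool in 24, with a median deviation of -0.13, against -0.06 over all genes. Day 28 replicate 4 lay below the mean in 2 genes and was lowest in 0, with a median deviation of 0.18, against 0.02 over all genes. Replicate 2 also stood apart on the third principal component of all genes (6.07% of the variance), and it had the highest array median (5.42, where the 14 arrays ran from 5.21 to 5.42). Without replicate 2, 25 members were called lower between days 18 and 28, and without replicate 4, 30 were.

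From day 28 to day 60, 38 of the 40 genes were called lower and none higher, where 11.2% of all genes were called lower and 13.8% higher. At an unadjusted p under 0.05, limma placed 39 lower and 0 higher. The median difference was -0.86, against -0.02 over all genes, and 36 genes did not overlap, against 14.3% of all genes. A fall of at least 2-fold was found in 14 genes, led by Depdc1 (-1.37 ± 0.13), Ect2 (-1.35 ± 0.096) and Stmn1 (-1.34 ± 0.11; all SE), where 0.374% of all genes fell as far. The 14 were mitosis genes, but Mcm6 reached -1.004 without day 28 replicate 2 and -1.02 with array weights, Pcna passed 2-fold after quantile normalisation, and the second cluster of Rrm2 was at -1.04 ± 0.11 (SE; limma, adjusted p = 4.17e-05). Gins2 and Kif11 were not called. The call of Aurka (adjusted p = 0.0328) ended without any 1 of 5 pools, day 28 replicates 2 and 3 and all 3 of day 60 (adjusted p 0.0664 to 0.0912), and that of Ccnb2 (adjusted p = 0.0238) without day 28 replicate 2 or 4 or day 60 replicate 1 (adjusted p 0.0539 to 0.126). Gins2 passed without day 28 replicate 2 (adjusted p = 0.0219) or day 60 replicate 3 (adjusted p = 0.0123).

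**Figure D2:**
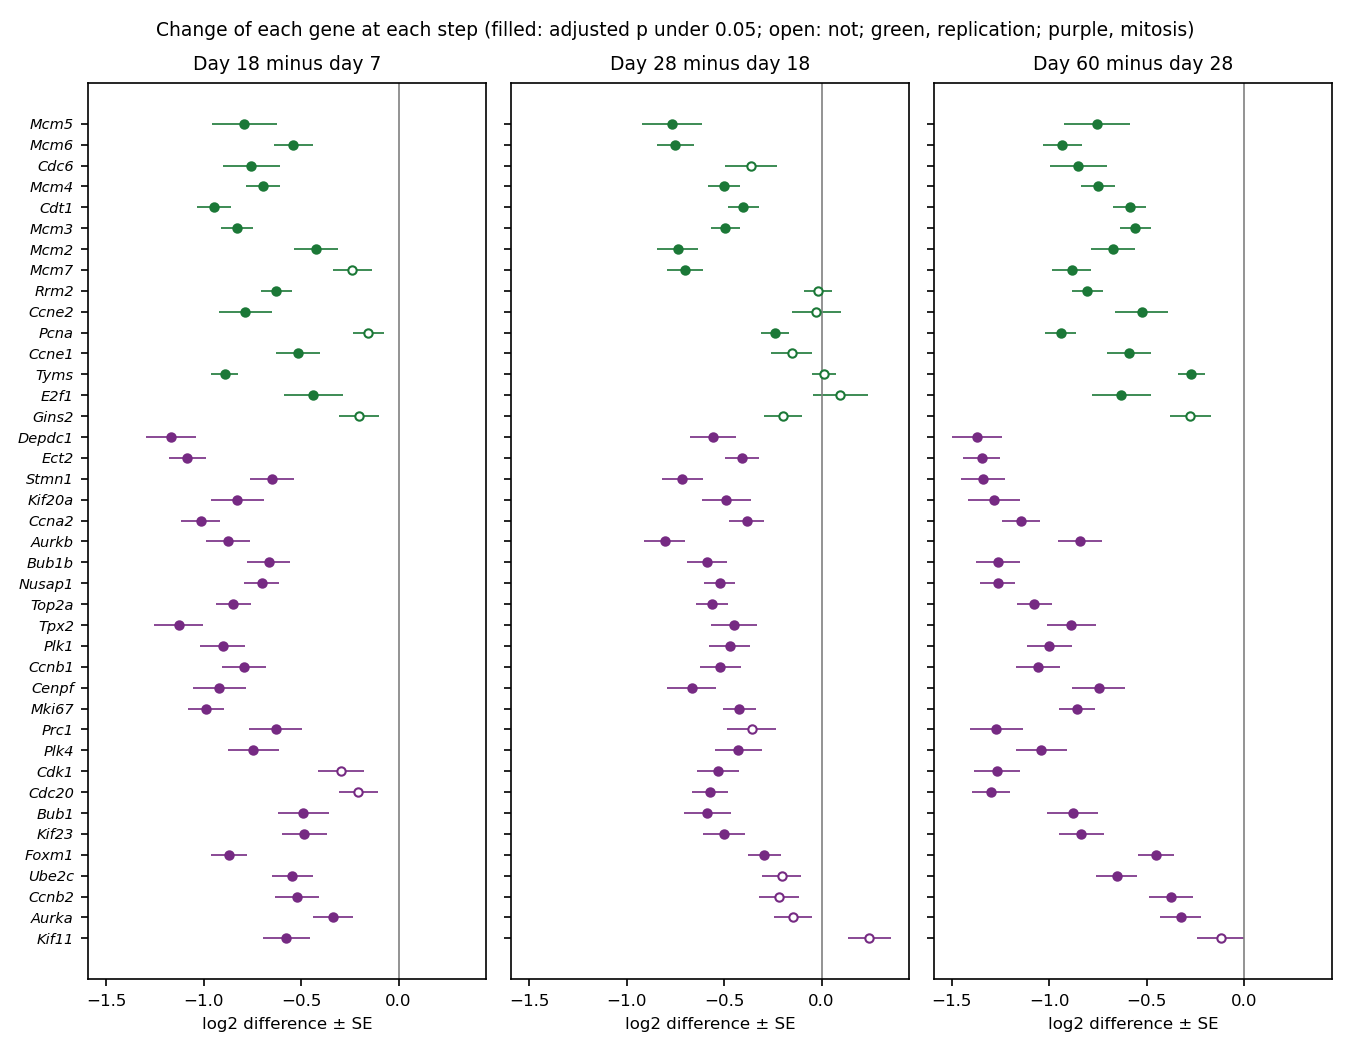
Log2 difference ± SE of each of the 40 genes at each step (panels, 3 or 4 pools an age), replication genes in green and mitosis genes in purple, filled where the limma adjusted p was under 0.05. Filled points number 35, 28 and 38 of 40, and every one lies left of 0.

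The means of 37 of the 40 genes were lower at each successive age, against 13.8% of all genes, and the exceptions were Tyms, E2f1 and Kif11. A call at each of the 3 steps was made for 24 of the 40, against 1.4% of all genes. The last step was the largest in 26 genes, the first in 13 and the second in 1, Mcm2, a subunit of the helicase. Its differences were -0.42, -0.74 and -0.68. The steps are unequal in length, at 11, 10 and 32 days, and the median differences per day were -0.0635, -0.046 and -0.0267. The first pair of steps was compared by a limma test of the second signed difference minus the first. In 11 genes the difference between days 18 and 28 was called above that between days 7 and 18. In none was it called below, although 1, Mcm7, was so without day 28 replicate 2 or 4. A second difference above the first was called for 11.4% of all genes. At an unadjusted p under 0.05, limma placed 14 genes on that side and 2 on the other. The 11 were Cdt1, Rrm2, Tyms and Ccne2 of replication and Ccna2, Foxm1, Tpx2, Kif11, Ect2, Mki67 and Depdc1 of mitosis. Kif11 changed direction, with -0.58 at the first step and 0.25 (not called) at the second. Tyms showed the widest gap, of 0.90 ± 0.11 (SE; adjusted p = 3.74e-05). The Rrm2 call is that of its brighter cluster. In the second Rrm2 cluster neither step was called, with -0.19 and 0.07 (limma over every cluster, adjusted p = 0.231 and 0.724). Nor was either called in the cluster given to both Rrm2 and Rrm2l1, with -0.07 and 0.0013 (same fit, adjusted p = 0.657 and 0.996). The Depdc1 call (adjusted p = 0.0498) ended under 12 of the 14 omissions of a pool, all but day 18 replicate 2 and day 28 replicate 2 (adjusted p up to 0.165). Those of Ccne2, Tpx2 and Mki67 ended without day 18 replicate 1 or 2 or day 7 replicate 2, without day 18 replicate 3 or day 7 replicate 2, and without day 18 replicate 1 (adjusted p up to 0.0779, 0.11 and 0.0627).

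The mitosis genes had the larger falls as a group, mainly at the last step. From day 7 to day 60 the median difference was -1.83 over the 15 replication genes and -2.33 over the 25 mitosis genes, and 13 of 15 and 23 of 25 fell by at least 2-fold. At the last step 0 of 15 replication genes and 14 of 25 mitosis genes reached a fall of 2-fold, with members close to that cut on both sides (Pcna at -0.94, Mcm6 at -0.93 and Plk1 at -1.0011). Over the settings run these counts were 0 or 1 and 11 to 15. The number called lower was 12, 8 and 14 of 15 for replication at the 3 steps, and 23, 20 and 24 of 25 for mitosis. A call at every step was made for 6 of 15 replication genes and 18 of 25 mitosis genes. The medians at the steps were -0.63, -0.36 and -0.68 for replication and -0.75, -0.49 and -1.04 for mitosis. No test was made between the groups, because the genes were chosen with earlier results known and are not replicates.

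The same pattern was visible in single pools. The mean over the mitosis genes minus the mean over the replication genes, which serves only to compare pools, was 0.22 ± 0.074 in the 3 pools of day 7 (SD), 0.08 ± 0.085 in the 4 of day 18, -0.02 ± 0.043 in the 4 of day 28 and -0.31 ± 0.039 in the 3 of day 60. The day 60 pools, at -0.34 to -0.27, lay below every other pool, whereas day 18 overlapped both with day 7 (0.14 to 0.29 and -0.03 to 0.17) and with day 28 (-0.06 to 0.02). Relative to day 7, the replication mean was -0.59 ± 0.011, -0.94 ± 0.13 and -1.61 ± 0.049 at the later ages, and the mitosis mean was -0.73 ± 0.094, -1.18 ± 0.14 and -2.14 ± 0.021 (SD over pools). Without the 9 genes of mixed role (Ccne1, Ccne2, E2f1, Ccna2, Plk4, Top2a, Mki67, Stmn1 and Foxm1), the median gap between the groups was -0.0051 instead of -0.12 at the first step, -0.055 instead of -0.13 at the second and -0.25 instead of -0.37 at the last. The gap at the second step turned to 0.013 among brighter genes (at or above the median signal), and the gaps at the first and second steps shrank to -0.021 without day 18 replicate 3 and to -0.039 without day 18 replicate 2.

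**Figure D3:**
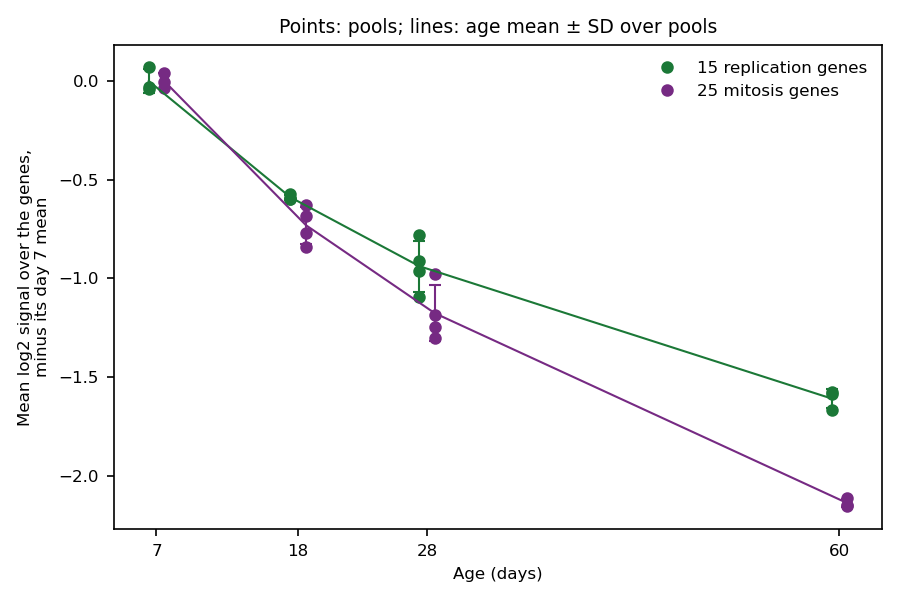
Mean log2 signal over the 15 replication genes (green) and the 25 mitosis genes (purple) in each pool, minus the day 7 mean, against age in days, with lines through the age means and bars for the SD over pools. The 3 day 60 pools lie at -1.66 to -1.57 for replication and -2.15 to -2.11 for mitosis.

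Motifs in the promoters also differed between the groups. The RefSeq table (GRCr8) holds 33 of the 43 genes, 11 of replication and 22 of mitosis, among 33469 promoters of 300 bases. The 33 include Rrm1, Birc5 and Cenpe, whose signals were not analysed. An E2F site was present in 7 of 11 replication promoters (63.6%), in 2 of 22 mitosis promoters (9.09%), those of Cdk1 and Stmn1, and in 2.14% of all promoters. A CHR element was present in 3 of 11 replication promoters (27.3%), in 15 of 22 mitosis promoters (68.2%) and in 19.7% of all. Over the shorter window from 100 bases before the start to 50 after it, the CHR shares were 9.09%, 68.2% and 8.86%, so the replication share was near that of all promoters. The 1 replication promoter with a CHR element in that window was that of Rrm1. CCAAT boxes stood in 63.6% and 81.8% of the promoters of the groups and in 37.5% of all. The GC and TATA boxes were counted as controls of base composition. The GC box (GGGCGG, on either strand) stood in 81.8% and 72.7%, against 33.1% of all. The TATA box (TATAAA, on either strand) stood in 0 of 11 and 2 of 22, against 14.2%. The part of base composition in the differences from all promoters was not tested. These are matches of letters and not binding sites. Among measured mitosis genes the median whole-span difference was -2.30 (range -3.10 to -1.12) for the 14 with a CHR element. It was -2.16 (-2.71 to -0.45) for the 6 without. Among measured replication genes it was -1.88 (-2.315 to -1.15) for the 7 with an E2F site. It was -1.26 (-1.34 to -0.68) for the 3 without, which were Ccne1, Pcna and Gins2. The ranges overlapped in both groups, and a link between motif and fall was not tested.

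**Figure D4:**
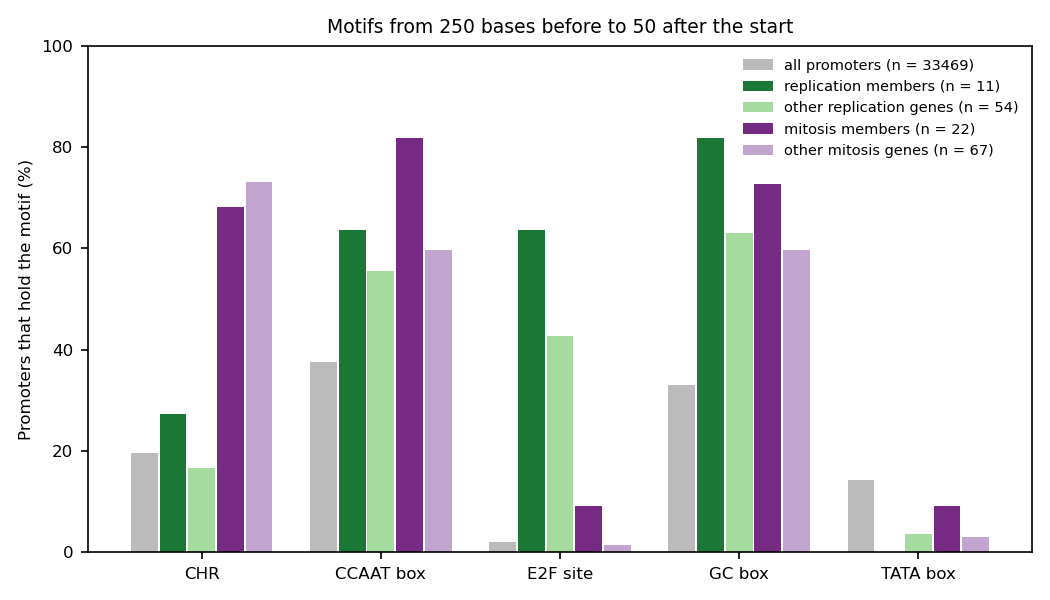
Percent of promoters, from 250 bases before to 50 after the start, that hold each of 5 motifs (groups of bars), for all 33469 promoters and for the replication and mitosis gene lists. E2F sites are in 63.6% of the replication promoters and 9.09% of the mitosis promoters, and CHR elements in 27.3% and 68.2%.

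Other genes of the same pathways, taken from lists that hold none of the 40, were also mostly called lower. Of 54 other replication genes, 37, 31 and 32 were called lower at the 3 steps and 51 over the whole span (68.5%, 57.4%, 59.3% and 94.4%), where 20.7%, 14.3%, 11.2% and 27.6% of all genes were, with a whole-span median of -1.23. Mcm10 and Cdc45, helicase factors, fell most at the first step (-1.19 ± 0.099 and -1.01 ± 0.10, SE). Chek1, the replication checkpoint kinase, and Chaf1b, of chromatin assembly, fell most at the second (-0.99 ± 0.13 and -0.68 ± 0.086), and Uhrf1, of DNA methylation upkeep, and Pclaf, which binds PCNA, at the last (-1.21 ± 0.10 and -1.13 ± 0.13). Uhrf1 and Gins1 fell most over the span, with differences of -2.44 ± 0.11 and -2.27 ± 0.11 (SE). Orc5 and Orc2, origin recognition subunits, rose over the span, where 21.7% of all genes were called higher, by 0.47 ± 0.088 and 0.35 ± 0.12 (SE; limma, adjusted p = 0.000346 and 0.0291). Orc5 was also the single gene of this list that rose at the last step, by 0.37 ± 0.082 (SE; adjusted p = 0.00423).

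Of 66 other mitosis genes, 56, 45 and 53 were called lower at the steps and 64 over the span (84.8%, 68.2%, 80.3% and 97%). Of all genes 20.7%, 14.3%, 11.2% and 27.6% were called lower. The whole-span median of the 66 was -1.78. Cks2, a Cdk subunit, and Troap, a spindle protein, fell most at the first step (-1.24 ± 0.14 and -1.21 ± 0.17, SE), and Sgo2, which protects cohesin, and Ncapg, of condensin, at the second (-0.87 ± 0.15 and -0.72 ± 0.099). Lmnb1, lamin B1, and Ndc80, of the outer kinetochore, fell most at the last step (-1.24 ± 0.095 and -1.21 ± 0.12). Sgo2 fell by 3.05 and Ndc80 by 2.69 over the span, with the day 60 mean of Sgo2 (4.21 ± 0.33, SD, n = 3) under the background level. Cit, citron kinase of cytokinesis, rose at the last step by 0.44 ± 0.090 (SE; limma, adjusted p = 0.00258) and, with Cks1b, was not called over the span.

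Of the 41 regulators of G1 and inhibitors, 29 were called lower over the span (70.7%, against 27.6% of all genes) and 4 higher, where 21.7% of all genes were, and the median was -0.56. Cdkn1c, the Cdk inhibitor p57, and Mybl2, which encodes B-Myb, fell most, from 9.28 ± 0.17 to 6.89 ± 0.027 and from 8.64 ± 0.056 to 5.92 ± 0.28 (mean ± SD, n = 3 each). Ccng1, cyclin G1, and Rbl2, the pocket protein p130, rose by 0.73 ± 0.084 and 0.71 ± 0.088 (SE; limma, adjusted p = 3.23e-06 and 6.42e-06). At the first step Gadd45a, a growth arrest gene, rose by 1.05 ± 0.12, and Cdkn2a rose by 0.50 ± 0.13 with both means (4.38 and 4.87) under the background level. At the second step Rbl1, the pocket protein p107, and Cdk4, the kinase of D-type cyclins, fell by 0.87 and 0.57, while Rbl2 and Ccnd2, cyclin D2, each rose by 0.26. At the last step Mycn and E2f7, a repressing E2F factor, fell by 1.08 and 0.91, while Lin37, of the MuvB complex, and Tfdp2, an E2F partner, rose by 0.55 and 0.44.

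**Figure D5:**
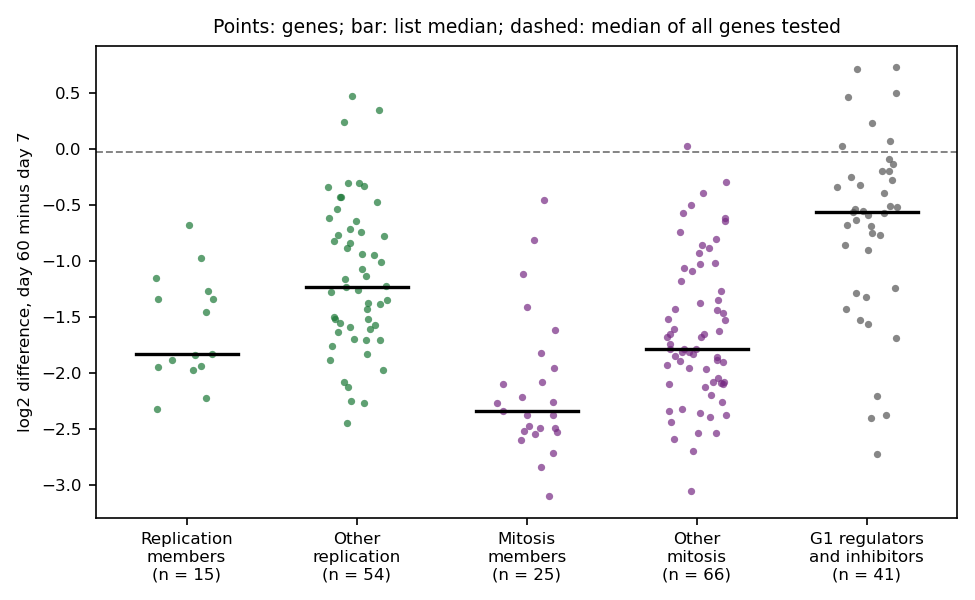
Log2 difference between day 60 and day 7 for each gene (points) of the 5 lists, with the list median as a bar and the median of all genes tested as a dashed line. List medians are -1.83 and -1.23 for replication members and other replication genes, -2.33 and -1.78 for mitosis members and other mitosis genes, and -0.56 for G1 regulators and inhibitors.

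Markers of the cell types in the organ also moved with age. Markers counted as falling or rising are those called by limma at that step. Of all genes, 20.7%, 14.3% and 11.2% were called lower at the 3 steps, and 17.4%, 10.5% and 13.8% higher. All 10 epithelial markers, among them Epcam, Cdh1 and Krt8, were above the background level at every age, and 8 of 10 measured secretory epithelium markers were under it at day 7 but 0 at day 60. At the first step all 12 fibroblast and matrix markers fell (summed level, as log2, 15.3 to 15.4 at day 7 and 14.7 to 14.8 at day 18) and all 10 epithelial markers rose (12.6 to 12.7 and 13.3 to 13.4). At the same step 4 of 6 endothelial markers fell (10.2 to 10.3 and 9.46 to 9.56) and 7 of 11 leukocyte markers rose (11.4 and 12.61 to 12.99). Of 7 smooth muscle markers, 4 fell and 1 rose at the first step (12.8 to 13.2 at day 7 and 12.3 to 12.7 at day 18). At the second step 9 of 10 secretory epithelium markers rose (12.64 to 12.998 at day 18 and 14.65 to 14.74 at day 28), as did 5 of 7 smooth muscle markers (12.3 to 12.7 and 12.98 to 13.3) and 3 of 6 endothelial markers (9.46 to 9.56 and 9.72 to 9.84). Of the 10 epithelial markers 4 fell and 1 rose at that step, and of the 12 fibroblast markers 1 fell and 3 rose. At the last step 7 of 12 fibroblast markers fell and 1 rose (14.80 to 14.97 at day 28 and 14.6 at day 60). Of 12 haploid germ cell markers, 8 rose (8.42 to 8.63 and 10.9 to 11.4). Of 10 measured secretory epithelium markers 5 rose, as did 4 of 11 leukocyte markers, and 3 of 10 epithelial markers fell. No smooth muscle or endothelial marker was called at that step. Of 6 red blood cell precursor markers, 1 fell at the first step, 1 at the second and 0 at the last. The part of these shifts in the falls of the cell cycle genes was not tested. Of 12 meiotic germ cell markers, 9 to 11 were under the background level at each age, with Sycp1, Sycp3 and Dmc1 under it at all 4. From day 7 to day 60, 3 of the 12 were called higher and 0 lower, where 21.7% and 27.6% of all genes were. The summed level of the 12 rose (7.47 to 7.55 at day 7 and 10.9 to 11.2 at day 60), but at day 60 it was mostly Tex101. Tex101 rose most, from a mean of 5.66 at day 7 to 9.39 at day 28 and 10.88 at day 60. Sycp2 and Ddx4, also called higher, had day 60 means of 2.76 and 4.73, under the background level.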

How the data were processed

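RNA from 14 pools of rat epididymides was measured on RatGene 2.0 ST arrays. The authors deposited 1 table of log2 signals for 36685 transcript clusters. RMA and Transcriptome Analysis Console are named for it per the submitters' processing notes, with settings and versions not given in the sources used here. RMA makes arrays comparable in distribution, so a signal is relative to the other genes of its array. A cluster was named from the platform annotation: 18511 had 1 symbol, 575 had several and 17599 had none listed. The cluster with the highest mean stood for each of 18166 genes. One mean per age was fitted with limma 3.58.1 (R 4.3.3, lmFit and eBayes), two-sided, with Benjamini-Hochberg adjustment over all genes and a threshold of 0.05. Ages come from the labels. SDs are over pools and SEs from the fit, and the number of arrays limits the precision. The script was tested on simulated data.

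All members are accounted for. Of each other list, the 2 largest called falls and rises in each comparison are named, and promoters are those of the 3 largest falls in each group that have an entry. The members and lists were chosen with earlier results of these data known. No pairing of the pools by replicate number was seen: 0 of 19 same-numbered pairs had deviations correlated over 0.1 (r -0.14 to 0.046). Pairs of other numbers reached 0.12. With so few pools an age, this check cannot exclude a shared origin or handling. Arrays of an age correlated at 0.989 to 0.995 and no 2 were identical. Alternatives were quantile normalization, median centring, a replicate block, a fit with an intensity trend and robust settings, a filter at the median level, weights for arrays, fits of the compared ages alone or of every cluster, averaging of a gene's clusters, omission of each pool, groups without the genes of mixed role, and a shorter promoter window.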

Additional observations from a re-analysis of the deposited data

Results flagged for a closer look

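In 3 of the 80 groups of 4 pools tested (each member at day 18 and at day 28), the lowest pool lay far from the other pools of its age, by Dixon's criterion. This is 3.75% of the groups, and chance places about 1 group in 20 there. Ccne2 was 5.77 in day 28 replicate 2, where the other pools of that age ran from 6.34 to 6.44. Foxm1 was 6.56 in the same pool, against 6.84 to 6.87 in the others. Mcm2 was 8.53 in day 18 replicate 4, against 8.60 in each of the others, a gap of less than 0.1.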

How the results depend on the processing

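All 40 whole-span falls kept their direction and their call under each setting run. Of the results for single members, 1478 were the same, 21 weaker, 15 stronger and 4 reversed under the settings that kept all pools, and 2335, 43, 10 and 6 when a pool was left out. The reversals that kept all pools were all between days 18 and 28 and none passed the test: Rrm2 at 0.0040 after quantile normalization and 0.026 with the mean of its clusters, Tyms at -0.042 after median centring, and Ccne2 at 0.063 with array weights. Leaving out a pool gave, at that step, -0.056 to 0.021 for Rrm2, -0.025 to 0.044 for Tyms and -0.094 to 0.13 for Ccne2, and -0.28 to 0.012 for Kif11 at the last step. The median gap between mitosis and replication genes was -0.21 with the mean of a gene's clusters and -0.0051 without the genes of mixed role at the first step. At the second it was 0.013 under the filter at the median level, which keeps 35 of the 40, and -0.055 without the genes of mixed role. At the last it was -0.27 with that filter, -0.28 with array weights and -0.25 without the genes of mixed role. Leaving out a pool moved these gaps over -0.21 to -0.021, -0.22 to -0.039 and -0.44 to -0.27, and over -0.55 to -0.45 for the whole span. Quantile normalization called 1 member (Kif11) higher between days 18 and 28. In the comparison of the first pair of steps, 1 member (Mcm7) passed with a larger second fall after quantile normalization, with the median filter, with the intensity trend or with array weights, and 0 to 1 did when a pool was left out, where day 28 replicate 2 or 4 gave the 1. Median centring called 1104 genes lower and 2793 higher at the last step (2039 and 2511 as reported) and 2890 lower and 1339 higher at the second (2592 and 1899). From 100 bases before the start, CHR elements stood in 9.09% of replication promoters (8.86% of all), and GC boxes in 45.5% of replication and 50% of mitosis promoters (25.3% of all). With all pools kept, the calls of Aurka (first and last step), Ccnb2 and Tyms (last), E2f1 (first) and Pcna (second) also ended under at least 1 setting (adjusted p 0.0501 to 0.103), as did those of Ccne2, Depdc1 and Tpx2 in the comparison of the first pair of steps, and those of Cdc6 and Prc1 (second) were gained (0.0182 to 0.0447). The replicate block, although no pairing by number was seen, called 34, 28 and 37 members lower at the steps and 40 over the span. Under it Cdc6 was gained at the second step, and E2f1, Pcna and Aurka were lost at the first, second and last. Signals near background bound the falls of Cdc6 and Bub1b. The causes of these shifts were not tested.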
